A study of Rattus norvegicus with 98 samples.

Results

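The 4 genes Ooep, Stx8, Fbxl4 and Coa4 were described out of 14217 genes that an Affymetrix rat array measured in nasal epithelial cells of rats exposed to formaldehyde. They were chosen by the measured values themselves, since their signal was lower at 6 ppm than in air at repeated times. Across 5 times of collection, 9 of 31042 probe sets were called lower at 6 ppm at 2 or more times, and 4 of these belong to the genes described here. Ooep and Stx8 were called at 6 h, 5 days and 19 days, and Fbxl4 and Coa4 at 6 h and 19 days. The other probe sets that met the threshold were those of Bmal1, Aacs, Prorp, Rars2 and Pou2af3, and 129 more probe sets were called lower at 1 time only. All 5 probe sets annotated to the 4 genes were examined. Ooep (NCBI gene 301100), Stx8 (59074) and Coa4 (499214) have 1 each, and Fbxl4 (313101) has a brighter probe set, used unless stated, and a second, dimmer one.

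The genes work in different compartments of the cell. Ooep encodes a KH-domain protein of the subcortical maternal complex, an assembly best known from the oocyte and the early embryo. Stx8 encodes syntaxin 8, a SNARE protein that helps late endosomes fuse with one another and with lysosomes. Fbxl4 encodes an F-box protein of the outer mitochondrial membrane that directs ubiquitin ligase activity to mitophagy receptors and so restrains the removal of mitochondria. Coa4 encodes a small protein of the mitochondrial intermembrane space that takes part in the assembly of cytochrome c oxidase, the last complex of the respiratory chain.

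The rats were male F344/NCrl animals, 8 weeks old per the series' design text, and each of the 98 animals gave 1 array, so replicates were separate animals. Inhalation was whole-body, in daily sessions of 6 h, 5 of them a week. Array set 1, the 82 arrays that share 1 project code in the labels, held air, 0.7, 2 and 6 ppm at 6 h, 24 h, 5 days, 8 days and 19 days. Array set 2, the 16 arrays with the other project code, held 4 groups at 6 h, namely air, 15 ppm, instilled water and instilled formaldehyde (400 mM, 40 ul in each nostril). Groups had 4 animals, apart from air at 8 days and 2 ppm at 5 days, which had 5. In the 0.7 ppm animals at 8 days the treatment field reads 0.07 ppm, whereas their other labels read 0.7 ppm, which was used. The cells were a protease digest, described by the submitters as mainly transitional epithelium with some respiratory epithelium, taken after the olfactory epithelium had been discarded.

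General epithelial markers were high in all animals, with Epcam, the epithelial adhesion molecule, between 11.8 and 12.55 and Krt8, a simple epithelial keratin, between 11.4 and 12.58 (log2 values). Omp, the marker of mature olfactory neurons, lay between 8.64 and 13.34, so the digests were not free of olfactory RNA. Of the 5 measured germ cell markers, Zp3, Gdf9, Bmp15 and Sohlh1, had means of 3.48 to 4.14 in a file whose values ran from 2.67 to 14.83, and Zp2 had a mean of 6.98. The digest is a mixture, and in such bulk RNA fewer cells of a type and less RNA per cell cannot be told apart. The labels of 85 arrays give an RNA integrity number, from 7.2 to 8.8. At 6 h, 6 ppm animals had 7.7 to 7.8 and air animals of array set 1 had 7.8 to 8.3. These ranges were 8.2 to 8.6 and 7.5 to 8.2 at 24 h, and 7.8 to 8.2 and 7.7 to 7.9 at 5 days. They were 7.7 to 7.8 and 8.2 to 8.8 at 8 days, and 8.2 to 8.8 and 8.3 to 8.5 at 19 days. Array set 2 had 7.3 to 7.8 in air, 7.7 to 8.2 at 15 ppm, 7.5 to 8.3 in water and 8.3 to 8.4 after instillation. How precise the values below are is limited by the number of animals.

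The sequences just upstream of the 4 genes are shown because all were called lower at 6 ppm at 6 h and 19 days. Each stretch is the 250 bases before the gene's start in RefSeq's GRCr8 rat assembly, 5′ to 3′ on the gene's strand, and capitals mark motif matches. They lie at chr8:88104849-88105098 (minus strand) for Ooep, chr10:53154422-53154671 (plus strand) for Stx8, chr5:40752271-40752520 (plus strand) for Fbxl4 and chr1:164294092-164294341 (plus strand) for Coa4.
Ooep: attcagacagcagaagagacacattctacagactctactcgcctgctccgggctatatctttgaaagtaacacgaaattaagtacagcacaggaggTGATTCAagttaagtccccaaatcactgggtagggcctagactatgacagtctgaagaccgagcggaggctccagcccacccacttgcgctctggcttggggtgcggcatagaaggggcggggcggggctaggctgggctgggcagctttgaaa
Stx8: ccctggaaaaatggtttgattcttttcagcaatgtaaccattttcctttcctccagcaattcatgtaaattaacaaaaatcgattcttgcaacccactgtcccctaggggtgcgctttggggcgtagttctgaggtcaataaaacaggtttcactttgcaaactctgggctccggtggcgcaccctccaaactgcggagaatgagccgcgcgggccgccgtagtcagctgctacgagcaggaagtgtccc
Fbxl4: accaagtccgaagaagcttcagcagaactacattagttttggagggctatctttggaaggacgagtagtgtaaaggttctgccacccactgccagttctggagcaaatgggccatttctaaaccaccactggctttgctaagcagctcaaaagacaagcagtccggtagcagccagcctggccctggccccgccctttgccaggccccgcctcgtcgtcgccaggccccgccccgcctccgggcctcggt
Coa4: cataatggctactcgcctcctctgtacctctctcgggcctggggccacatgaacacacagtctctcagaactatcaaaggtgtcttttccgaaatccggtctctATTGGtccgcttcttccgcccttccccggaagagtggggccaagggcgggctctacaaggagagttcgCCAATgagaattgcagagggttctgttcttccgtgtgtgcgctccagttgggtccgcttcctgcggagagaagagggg

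The motifs were searched on both strands in the window from 250 bases before to 50 bases after the start. They were the E-box CACGTG, the cAMP response element TGACGTCA, the AP-1 site TGANTCA, the antioxidant response element TGACNNNGC, the heat shock element (GAA, TTC and GAA, each 2 bases apart), the D-box TTATGTAA and the CCAAT box CCAAT. Ooep held 1 AP-1 match, TGATTCA, at position -154, and Coa4 held 2 CCAAT boxes, on the minus strand at -146 and on the plus strand at -78. No match overlapped another. Of 33469 windows of the same length, 7.33% held an AP-1 match and 37.5% a CCAAT box. The windows of Stx8 and Fbxl4 held none of the 7 motifs, and no motif was shared by the 4 genes. The other shares were 6.42% for the E-box, 1.83% for the cAMP response element, 12.1% for the antioxidant response element, 0.798% for the heat shock element and 0.893% for the D-box. GC content was 55% for Ooep, 53.7% for Stx8, 62.7% for Fbxl4 and 57.3% for Coa4, against a median of 51.7% over all windows.

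The comparisons of 6 ppm with air chose the genes, so their values describe the choice and carry no test. Ooep had the largest differences of the 4. At 6 h, the air animals of array set 1 had log2 values of 7.41, 7.58, 7.61 and 7.81, and the 6 ppm animals had 5.76, 6.29, 6.42 and 6.72. All exposed animals lay below all air animals, with a difference of -1.30 ± 0.23 (log2, SE of the model, n = 4 per group), or 2.47-fold lower. At 5 days the air animals had 6.89, 6.98, 7.07 and 7.31, and the 6 ppm animals had 5.64, 5.64, 6.06 and 6.36. At 19 days the air animals had 7.26, 7.38, 7.50 and 8.08, and the 6 ppm animals had 6.12, 6.27, 6.30 and 6.65. The groups stood apart at both times, with Ooep 2.2-fold lower at 5 days (-1.14 ± 0.23, SE, n = 4) and 2.33-fold lower at 19 days (-1.22 ± 0.23, SE, n = 4).

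The times in between looked different for Ooep. At 24 h the air animals had 6.65, 6.91, 6.97 and 6.99, and the 6 ppm animals had 6.43, 6.43, 6.48 and 6.65. At 8 days the 5 air animals had 6.86, 6.92, 7.15, 7.43 and 7.67, and the 6 ppm animals had 6.52, 6.67, 6.79 and 7.35. The groups overlapped at both times, and the differences were -0.38 ± 0.23 and -0.37 ± 0.21 (SE). The air animals averaged 6.88 ± 0.15 at 24 h and 7.60 ± 0.16 at 6 h (SD, n = 4). At 6 ppm the mean was lowest at 5 days, 5.93 ± 0.35 (SD, n = 4).

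**Figure D1:**
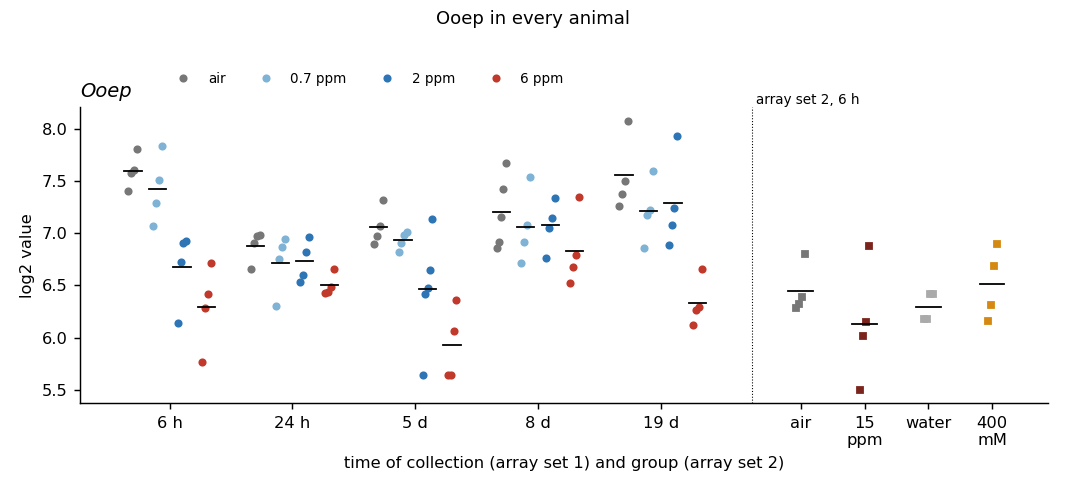
Log2 value of Ooep in each animal (points) and the mean of each group (bars), for air, 0.7, 2 and 6 ppm at 5 times in array set 1 and for air, 15 ppm, instilled water and 400 mM instilled formaldehyde at 6 h in array set 2. The 6 ppm animals lie below all air animals at 6 h, 5 days and 19 days, and the air animals of array set 2 (6.29 to 6.80) lie below those of array set 1 at 6 h (7.41 to 7.81).

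Stx8 varied much less between animals, and its differences were smaller and more even over time. At 6 h the air animals had 8.41, 8.42, 8.46 and 8.53, and the 6 ppm animals had 7.81, 8.16, 8.19 and 8.34. The difference was -0.33 ± 0.08 (log2, SE, n = 4), or 1.25-fold lower, and -0.22 without animal 284, the lowest at 6 ppm. At 5 days the air animals had 8.23, 8.32, 8.36 and 8.44, and the 6 ppm animals had 7.84, 7.98, 8.00 and 8.15, a difference of -0.34 ± 0.08. At 19 days the air animals had 8.41, 8.43, 8.56 and 8.65, and the 6 ppm animals had 8.08, 8.11, 8.25 and 8.26, a difference of -0.34 ± 0.08. The exposed animals also lay below all air animals at 8 days, where the difference was -0.23 ± 0.07, and the groups overlapped only at 24 h, where it was -0.15 ± 0.08.

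Fbxl4 was lower at the ends of the series. At 6 h the air animals had 7.83, 7.91, 7.91 and 7.93, and the 6 ppm animals had 7.20, 7.57, 7.61 and 7.62, a difference of -0.40 ± 0.09 (log2, SE, n = 4). At 19 days the air animals had 7.78, 7.87, 7.93 and 8.00, and the 6 ppm animals had 7.12, 7.54, 7.69 and 7.77. The groups did not overlap at either time, but at 19 days the highest exposed and lowest air animals almost touched. The 19-day difference of -0.37 ± 0.09 became -0.23 without animal 312, the lowest at 6 ppm. At 24 h, 5 days and 8 days the groups overlapped, with differences of -0.17, -0.19 and -0.01. The second probe set of Fbxl4 gave -0.23 ± 0.12 at 6 h and -0.18 ± 0.12 at 19 days, with overlapping groups, and its 6 h value was -0.11 without animal 284.

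Coa4 had its largest difference at 19 days. The air animals then had 7.48, 7.60, 7.64 and 7.92, and the 6 ppm animals had 7.01, 7.05, 7.09 and 7.20, a difference of -0.57 ± 0.10 (log2, SE, n = 4), or 1.49-fold lower. At 6 h the air animals had 7.51, 7.53, 7.60 and 7.70, and the 6 ppm animals had 6.92, 7.13, 7.18 and 7.43, a difference of -0.42 ± 0.10. At 5 days the groups also stood apart (air 7.33, 7.35, 7.36 and 7.56, 6 ppm 7.09, 7.12, 7.21 and 7.26), by -0.23 ± 0.10. At 24 h the air animals spread from 7.14 to 7.68 and the groups overlapped, and at 8 days the difference was 0.04 ± 0.10. Coa4 was thus the only 1 of the 4 lead probe sets whose difference was above 0 at any time at 6 ppm.

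**Figure D2:**
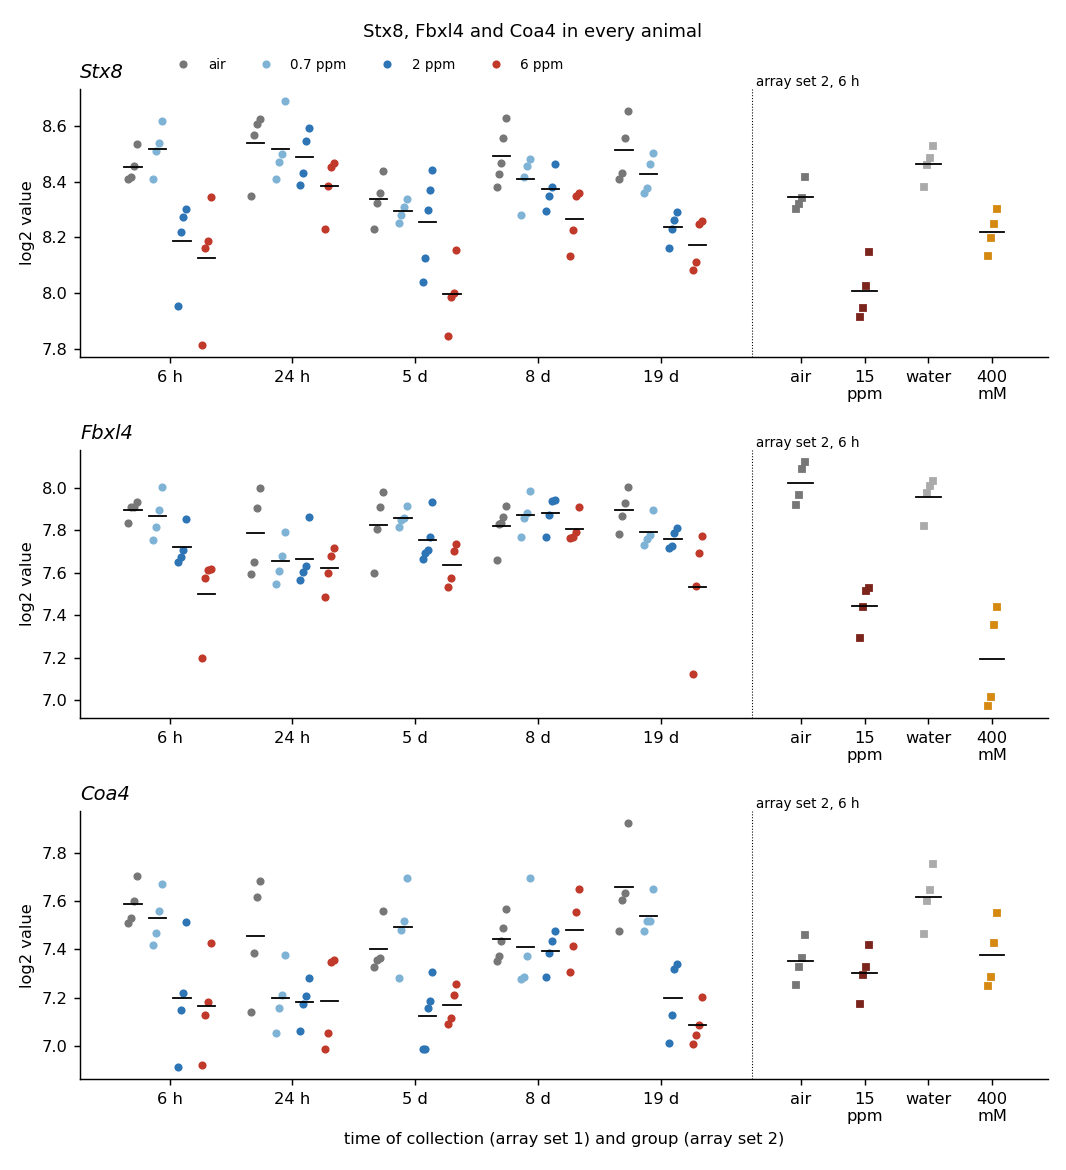
Log2 values of Stx8, Fbxl4 and Coa4 in each animal (points) with group means (bars), arranged as for Ooep. For Fbxl4 the instilled animals (6.97 to 7.44) and the 15 ppm animals (7.29 to 7.53) lie below their controls, while for Coa4 the 15 ppm animals (7.17 to 7.42) overlap the air animals of the same set (7.25 to 7.46).

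By the call rule used throughout, an adjusted p under 0.05 in limma, the 4 lead probe sets were lower at 6 ppm at 6 h and 19 days, 2 were at 5 days, and 0 were at 24 h and 8 days. Over all probe sets, 0.132%, 0.322%, 0.029%, 0% and 0% were called lower at 6 h, 19 days, 5 days, 24 h and 8 days. The groups stood fully apart in 4 of the 4 genes at 6 h and 19 days, 3 at 5 days, 0 at 24 h and 1 at 8 days, against 4.52%, 4.62%, 1.76%, 1.91% and 0.641% of all probe sets. These counts follow from the way the genes were chosen.

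The lower doses share their air animals with the comparisons that chose the genes, so they too are described without a test. At 2 ppm Ooep differed from air by -0.92 at 6 h, -0.15 at 24 h, -0.60 at 5 days, -0.13 at 8 days and -0.27 at 19 days (log2, SE 0.21 to 0.23). All 4 animals at 2 ppm and 6 h (6.14, 6.73, 6.91 and 6.93) lay below the air animals. Over all probe sets, 1.93%, 1.39%, 0.767%, 0.564% and 2.83% stood apart in this way from 6 h to 19 days. Stx8 at 2 ppm differed most at 6 h (-0.27 ± 0.08) and 19 days (-0.28 ± 0.08), where the groups did not overlap, and by -0.05 to -0.12 at the other times. Coa4 differed at 2 ppm by almost as much as at 6 ppm, namely -0.39, -0.27, -0.28, -0.05 and -0.46 from 6 h to 19 days (SE 0.09 to 0.10), and stood apart at 5 and 19 days. Fbxl4 differed by -0.18 to 0.06 at 2 ppm. At 0.7 ppm the differences were -0.34 to -0.13 for Ooep, -0.09 to 0.06 for Stx8, -0.13 to 0.05 for Fbxl4 and -0.26 to 0.09 for Coa4, and in none of the 4 genes did the groups stand apart at any time (1.7%, 1.68%, 1.01%, 0.325% and 1% of all probe sets from 6 h to 19 days).

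**Figure D3:**
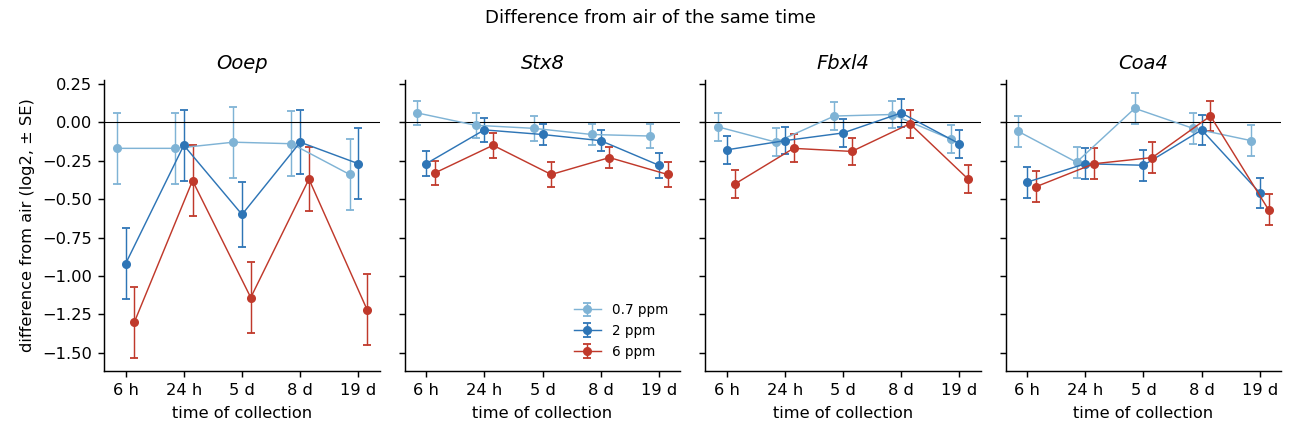
Difference from air of the same time (log2, points, with the SE of the model as bars) for 0.7, 2 and 6 ppm at 5 times of collection. Ooep at 6 ppm runs from -1.30 at 6 h to -0.37 at 8 days and back to -1.22 at 19 days, and the scale is shared by the 4 genes.

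Over the 24 groups of both array sets, Ooep ran from 5.93 ± 0.35 (6 ppm at 5 days) to 7.60 ± 0.16 (air at 6 h in array set 1, SD, n = 4). Stx8 had its lowest group mean at 6 ppm and 5 days, 8.00 ± 0.13, next to 15 ppm at 6 h with 8.01 ± 0.10, and its highest in air at 24 h, 8.54 ± 0.13 (SD, n = 4). Fbxl4 ran from 7.19 ± 0.24 after instillation and 7.44 ± 0.11 at 15 ppm to 8.02 ± 0.10 in the air animals of array set 2 (SD, n = 4). Coa4 ran from 7.09 ± 0.08 at 6 ppm and 19 days to 7.66 ± 0.19 in air at 19 days (SD, n = 4). Apart from the step from the instilled to the 15 ppm animals in Fbxl4, where the difference of 0.25 was close to the larger SD, neighbours in these orders differed by less than the larger of their SDs.

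The animals of array set 2 took no part in the choice, and the comparisons within it were therefore tested. Their differences used none of the animals that chose the genes. The SEs and p-values, however, came from a model fitted to all arrays, including those that chose the genes. To that extent the tests were not independent of the choice. In fits to array set 2 alone, Stx8 and the lead probe set of Fbxl4 kept their calls at 15 ppm. The first comparison asked what a 6 h exposure to 15 ppm did. Stx8 fell from 8.30, 8.32, 8.34 and 8.42 in air to 7.91, 7.95, 8.03 and 8.15 at 15 ppm, with no overlap (log2 difference -0.34 ± 0.08, SE, n = 4 per group, adjusted p = 0.00186). Fbxl4 fell from 7.92, 7.97, 8.09 and 8.12 to 7.29, 7.44, 7.51 and 7.53, again without overlap, and was 1.5-fold lower (-0.58 ± 0.09, SE, n = 4, adjusted p = 2.85e-06). Its second probe set was also lower (-0.38 ± 0.12, adjusted p = 0.0364). That second call was lost without any of air animals 321, 322 and 323 or 15 ppm animals 337 and 342 (adjusted p 0.0706 to 0.146), and in a fit to array set 2 alone (adjusted p = 0.104, range over the alternatives 0.00357 to 0.104).

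Ooep and Coa4 were not called at 15 ppm. Ooep had 6.29, 6.32, 6.39 and 6.80 in air and 5.50, 6.02, 6.15 and 6.87 at 15 ppm, so that 3 animals lay below all controls and 1 above them. The difference was -0.31 ± 0.23 (95% interval -0.76 to 0.13, adjusted p = 0.478). It was -0.56 without 15 ppm animal 338, the highest, -0.10 without 15 ppm animal 342, the lowest, and -0.20 without air animal 322, and was called in none of these fits. Coa4 had 7.25, 7.33, 7.36 and 7.46 in air and 7.17, 7.30, 7.33 and 7.42 at 15 ppm, a difference of -0.05 ± 0.10 (95% interval -0.25 to 0.16, adjusted p = 0.864). So 2 of the 4 lead probe sets were called lower, both with groups that stood apart, where 4.17% of all probe sets were called lower and 8.31% stood apart. Of the 2636 probe sets called at 15 ppm (8.49%), 50.8% were higher, and 62.7% were after cyclic loess normalization.

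The other route was instillation of formaldehyde, compared with instilled water. Fbxl4 had its lowest values of the series here. Water animals had 7.82, 7.98, 8.01 and 8.03, and instilled animals had 6.97, 7.01, 7.35 and 7.44, so Fbxl4 fell 1.7-fold (-0.76 ± 0.09, SE, n = 4, adjusted p = 3.89e-10). The second probe set fell as well, from 5.21, 5.36, 5.41 and 5.57 to 4.39, 4.88, 4.88 and 4.95 (-0.61 ± 0.12, adjusted p = 7.78e-05). Stx8 fell from 8.38, 8.46, 8.48 and 8.53 to 8.13, 8.20, 8.25 and 8.30 (-0.24 ± 0.08, adjusted p = 0.0163), with no overlap. The call of Stx8 was lost without instilled animal 374 (-0.21, adjusted p = 0.0711), without water animal 355 (-0.22, adjusted p = 0.0553) and after cyclic loess normalization (-0.13, adjusted p = 0.249, range over the alternatives 0.0105 to 0.249).

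Ooep and Coa4 were not called after instillation either. Ooep had 6.17, 6.18, 6.41 and 6.42 in water and 6.16, 6.31, 6.69 and 6.89 after formaldehyde, a difference of 0.22 ± 0.23 (95% interval -0.23 to 0.66, adjusted p = 0.548). Leaving out 1 animal gave 0.09 (without instilled animal 365) to 0.33 (without instilled animal 372). Coa4 had 7.46, 7.60, 7.65 and 7.75 in water and 7.25, 7.28, 7.43 and 7.55 after formaldehyde, a difference of -0.24 ± 0.10 (95% interval -0.44 to -0.03, adjusted p = 0.0885). Without instilled animal 372, the highest, Coa4 was called (-0.30, adjusted p = 0.043). Thus 2 of the 4 lead probe sets were called lower and stood apart, where 12.4% of all probe sets were called lower and 9.76% stood apart.

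Instilled water itself, compared with air, changed 0 of the 4 genes in limma, and 1, Coa4, had an unadjusted p under 0.05 (0.26 ± 0.10, adjusted p = 0.359). All 4 water animals lay above all air animals for Coa4, as in 5.3% of all probe sets, and 0.0129% were called. Fbxl4 differed between water and air by -0.07 ± 0.09, Stx8 by 0.12 ± 0.08 and Ooep by -0.15 ± 0.23. The difference between the effects of 15 ppm and of instillation was called for 0 of the 4 genes, with 0 at an unadjusted p under 0.05 (0.879% of all probe sets called). It was 0.18 for Fbxl4 (95% interval -0.08 to 0.44), -0.09 for Stx8 (-0.31 to 0.13), -0.53 for Ooep (-1.16 to 0.10) and 0.19 for Coa4 (-0.10 to 0.48).

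**Figure D4:**
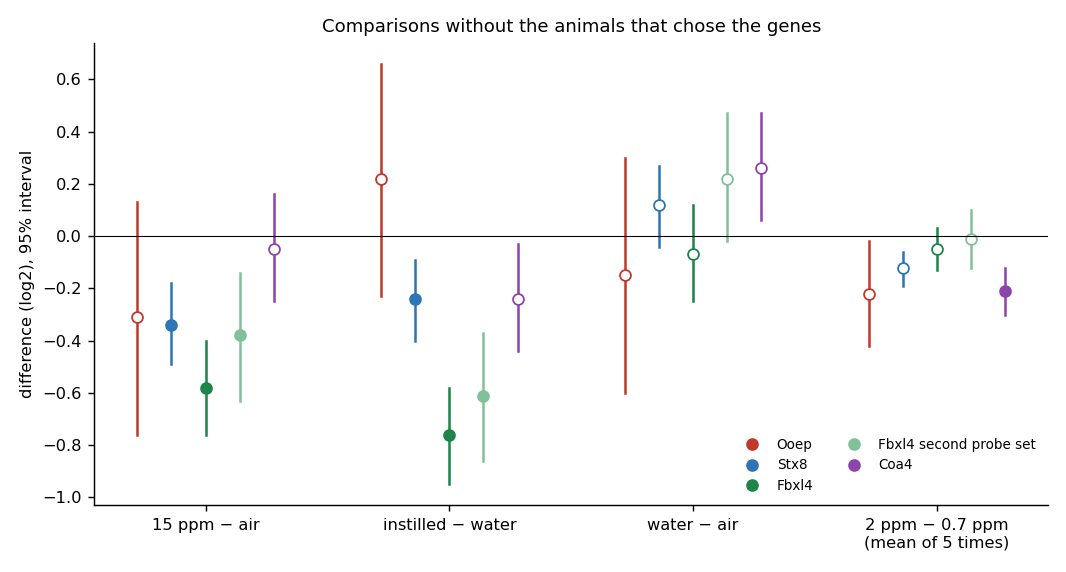
Difference (log2, circles) with its 95% interval (lines) for the 5 probe sets in 4 comparisons, with filled circles for an adjusted p under 0.05. The differences used neither the 6 ppm animals nor the air animals of array set 1. The intervals and p-values came from a model fitted to all arrays, including those animals. Both probe sets of Fbxl4 and that of Stx8 are filled at 15 ppm and after instillation, and Coa4 is filled for 2 ppm against 0.7 ppm.

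Neutrophil markers rose in both comparisons where Fbxl4 and Stx8 fell, and the olfactory and ciliated cell lists had fewer or no calls. Of 8 measured neutrophil markers, 4 rose at 15 ppm (median difference 1.19) and 6 after instillation (median 1.96), where 4.32% and 9.83% of all probe sets rose. Their mean level per animal was 5.64 to 6.18 in air and 6.91 to 7.41 at 15 ppm, and 6.11 to 6.88 in water and 8.04 to 8.49 after instillation. The 8 olfactory markers had a mean level of 8.17 to 10.14 in water and 7.99 to 9.33 after instillation, against 10.30 to 11.28 in the air animals of this set. For olfactory markers, limma called 0 of 8 in either comparison, and 0 of 8 had an unadjusted p under 0.05. The 4 measured ciliated cell markers (of 10 listed) had a mean level of 9.42 to 9.77 in water and 9 to 9.13 after instillation, without overlap, and 1 of them was called lower (12.4% of all probe sets were, list median -0.46). At 15 ppm they overlapped, with 9.46 to 9.93 in air and 9.34 to 9.65 at 15 ppm. No marker of these lists was at 0. The part of these cells in the falls of Fbxl4 and Stx8 was not tested.

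A list of markers of tuft cells, the chemosensory cells of the epithelium, was drawn up after values were seen, and 8 of its 12 genes were measured. Its mean level per animal was 6.64 to 6.80 in air and 6.32 to 6.46 at 15 ppm, and 6.71 to 6.92 in water and 6.34 to 6.61 after instillation, without overlap in either comparison. At 15 ppm 1 of the 8 was called lower (4.17% of all probe sets were), Pou2af3, a transcriptional coactivator (-1.13), with a list median of -0.23. The other list genes differed there by -0.46 to 0.06, so Pou2af3 weighs heavily in the mean level at 15 ppm. After instillation 4 were called lower, Gnat3 (-1.13), Pou2af3 (-1.02), Avil (-0.79) and Dclk1 (-0.70), and Alox5ap (1.03) and Plcb2 (0.26), which leukocytes also express, were called higher, with a list median of -0.55. Of all probe sets, 12.4% were called lower and 9.83% higher there. Pou2af3 was also called lower at 6 ppm at 6 h (-0.73) and 19 days (-0.68). It is 1 of the 9 probe sets that met the threshold by which the 4 genes were chosen. Its sharing these times with them therefore follows from the choice. Of the 8 list genes, no other was called at these times, and the list medians were -0.13 at 6 h and -0.09 at 19 days. At 6 ppm the level of the list was 6.27 to 6.53 at 6 h (air 6.42 to 6.63), 6.30 to 6.60 at 5 days (air 6.48 to 6.61) and 6.28 to 6.44 at 19 days (air 6.45 to 6.58). These levels include Pou2af3 and so take in part of the choice. No marker was at 0, and the part of these cells in the differences of the 4 genes was not tested.

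Between array sets, air animals differed most in Ooep. At 6 h the air animals of array set 2 (6.29 to 6.80) lay below those of array set 1 (7.41 to 7.81), a difference of -1.15 ± 0.23 (log2, SE, n = 4), or 2.22-fold. The other differences between these air groups were -0.23 for Coa4, whose groups did not overlap, -0.11 for Stx8 and 0.13 for Fbxl4. Over all probe sets, 4.7% were called between the air groups, and 7.44% had every animal of array set 2 below every animal of array set 1. Set against the air animals of array set 1, the 15 ppm animals would differ by -1.47 in Ooep, in place of -0.31. The RNA integrity numbers of these air animals also differed, with 7.3 to 7.8 in array set 2 and 7.8 to 8.3 in array set 1. Array set and other differences between these animals cannot be told apart, so the comparisons planned as tests each lay within 1 set. The order of the 24 groups and the correlations of genes over the 98 arrays span both sets and take in this difference.

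The 2 ppm and 0.7 ppm animals of array set 1 gave a dose comparison whose differences used neither air nor 6 ppm animals. Its SEs and p-values came from the model fitted to all arrays, including those that chose the genes. Over the 5 times, Coa4 averaged 7.22 at 2 ppm and 7.43 at 0.7 ppm and was called lower (-0.21 ± 0.05, SE, adjusted p = 0.0315). At 19 days the 2 ppm animals had 7.01, 7.13, 7.32 and 7.34 and the 0.7 ppm animals had 7.48, 7.52, 7.52 and 7.65. At 5 days the 2 ppm animals had 6.99, 6.99, 7.16, 7.19 and 7.31 and the 0.7 ppm animals had 7.28, 7.48, 7.52 and 7.70. The difference was -0.37 at 5 days, -0.34 at 19 days and -0.33 at 6 h, and -0.02 and -0.01 at 24 h and 8 days. Stx8 differed by -0.12 ± 0.03 (adjusted p = 0.127), Ooep by -0.22 ± 0.10 (adjusted p = 0.509) and Fbxl4 by -0.05 ± 0.04 (adjusted p = 0.814).

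The 1 call among the 4 genes compares with 0.0451% of all probe sets called lower, or 14 of the 20 called (0.0644%). With cyclic loess the number called was also 20, but 65% of them were higher in place of 30%. The call of Coa4 was lost with the RNA integrity number as a covariate (-0.22, adjusted p = 0.168, range over the alternatives 0.0194 to 0.168). That fit also left out the 13 arrays without the number, so the covariate and the fewer animals cannot be told apart. The call was also lost in 14 of the 41 fits that left out 1 animal, with an adjusted p of at most 0.0852 and differences of -0.23 to -0.19. Those were the fits without 0.7 ppm animals 127, 133, 137, 138, 144 and 152 or 2 ppm animals 207, 209, 212, 214, 218, 223, 232 and 234.

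At single times 0 of the 4 genes passed between 2 and 0.7 ppm in limma. At 6 h, 3 had an unadjusted p under 0.05, namely Ooep (-0.75 ± 0.23, adjusted p = 0.281), Stx8 (-0.33 ± 0.08, adjusted p = 0.203) and Coa4 (-0.33 ± 0.10, adjusted p = 0.296). At that time Ooep and Stx8 stood apart, as 2.54% of all probe sets did. The shares of all probe sets called were 0%, 0%, 0.00322%, 0% and 0% from 6 h to 19 days. Without animal 209 at 2 ppm, whose RNA integrity number was the lowest of all, these differences were -0.57, -0.25 and -0.24. For Ooep the 0.7 ppm animals had 7.07, 7.29, 7.51 and 7.83, above the 4 animals at 2 ppm. At 19 days Stx8 (-0.19 ± 0.08, adjusted p = 0.634) and Coa4 stood apart, as 2.35% of all probe sets did. At 5 days Ooep differed by -0.47 ± 0.21 (adjusted p = 0.598).

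In the same 0.7 and 2 ppm animals, the level of Stx8 (adjusted p = 0.00785) and Ooep (adjusted p = 0.0107) changed with the time of collection. That makes 2 of the 4 genes, and 31.3% of all probe sets were called, so the count is not particular to them. Ooep was lowest at 5 days, 6.67 ± 0.46 (SD, n = 9), and highest at 19 days, 7.25 ± 0.36 (SD, n = 8). Stx8 was also lowest at 5 days, 8.27 ± 0.12 (SD, n = 9), but highest at 24 h, 8.50 ± 0.10 (SD, n = 8). Both calls were lost with the RNA integrity number as a covariate over the 85 arrays that have one (Stx8 adjusted p = 0.0648, range over the alternatives 0.000614 to 0.0648, Ooep adjusted p = 0.0677, range 0.00137 to 0.0677). Fbxl4 (adjusted p = 0.0774) and Coa4 (adjusted p = 0.107) were not called. With array weights both were (adjusted p = 0.0414 and 0.0449, ranges over the alternatives 0.0414 to 0.104 and 0.0449 to 0.139), and Fbxl4 was also without 2 ppm animal 214 of the 24 h group (adjusted p = 0.0325).

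Within groups, the same animals were often low for several of the genes. At 6 ppm and 6 h animal 284 had the lowest value of its group in all 4 genes (Ooep 5.76, Stx8 7.81, Fbxl4 7.20, Coa4 6.92). At 2 ppm and 6 h animal 209 was lowest in Ooep (6.14), Stx8 (7.95) and Coa4 (6.91), and at 2 ppm and 5 days animal 218 was lowest in Ooep (5.64) and Stx8 (8.04). The RNA integrity number of animal 209 was 7.2, the lowest of the 85 known, where 3 others of its group had 8.2 to 8.6. That of animal 218 was 7.4, where 3 others had 7.8 to 8.1, and that of animal 284 was 7.7, where 2 others had 7.7 to 7.8.

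After subtraction of the group means, Ooep and Stx8 correlated over the 98 animals with r = 0.38, Stx8 and Coa4 with r = 0.36 and Ooep and Coa4 with r = 0.31. These 98 include the 41 animals whose values chose the genes, so the test was made over the other 57. There Ooep and Stx8 had r = 0.54 and rho = 0.45 (permutation within groups, p = 0.00079 and 0.00311, adjusted over 6 pairs 0.00474 and 0.0187). Ooep and Coa4 had r = 0.37 and rho = 0.33 (permutation p = 0.0148 and 0.0294, adjusted 0.0444 and 0.0882). Stx8 and Coa4 had r = 0.37 and rho = 0.30 (permutation p = 0.0273 and 0.0495, adjusted 0.0546 and 0.099). Thus the first pair passed by both measures, the second by r only and the third by neither.

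Without the 2 animals farthest from the median of the first gene, r was 0.44, 0.32 and 0.25 for these pairs. Without animals 209 and 218 it was 0.42, 0.28 and 0.25. Among the 41 animals of array set 1 in this test it was 0.56, 0.44 and 0.41, and among the 16 of array set 2 it was 0.51, 0.17 and 0.16. Fbxl4 had an r of 0.06, 0.23 and 0.14 with Ooep, Stx8 and Coa4 and a rho of -0.02, 0.21 and 0.15 (adjusted permutation p of r 0.701, 0.204 and 0.408, of rho 0.902, 0.252 and 0.37). Over the 98 animals, 2.66% of other genes had a higher r with Ooep than Stx8 had, and 2.74% a higher r with Stx8 than Ooep had. For Stx8 and Coa4 these shares were 3.57% and 7.93%, for Ooep and Coa4 7.68% and 13.6%, and for the pairs with Fbxl4 31.1% to 39.5%. The part of RNA quality in these correlations was not tested.

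The pathway partners of each gene were examined from lists of its known complex, 4 lists in all. For Ooep, 2 of 8 other members of the subcortical maternal complex list were measured. At 15 ppm 0 of the 2 were called in limma (1 at an unadjusted p under 0.05), and after instillation Zbed3, a zinc finger partner of the complex, fell (-0.47 ± 0.09, adjusted p = 4.11e-05). For Stx8, 20 of 20 endosomal SNAREs and tethers were measured, and 4 fell at 15 ppm, where 4.17% of all probe sets did (median difference of the list -0.15, of all probe sets 0.01). They were Vti1a (-0.49, adjusted p = 0.00129), Nsf (-0.40, adjusted p = 0.0199), Vamp7 (-0.30, adjusted p = 0.0257) and Stx6 (-0.22, adjusted p = 0.0409). Vti1a, Vamp7 and Stx6 are SNAREs, and Nsf is the ATPase that takes SNARE complexes apart. After instillation Nsf fell again (-0.46, adjusted p = 0.00255), with Rab7a, the late endosome GTPase (-0.22, adjusted p = 0.00143), and the SNARE Stx16 (-0.22, adjusted p = 0.0214), and none rose. The share of the list that fell there was near the 12.4% of all probe sets called lower. Vti1b, Stx7 and Vamp8, the usual partners of syntaxin 8, were not called in either comparison.

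For Fbxl4, 17 of 19 genes of the SCF ligase and mitophagy list were measured. At 15 ppm Sqstm1, an autophagy receptor, rose (0.60 ± 0.09, adjusted p = 2.53e-07) and Fundc1, a mitophagy receptor, fell (-0.42 ± 0.12, adjusted p = 0.0135). After instillation 3 of the 17 fell and 4 rose, where 12.4% of all probe sets were called lower and 9.83% higher, so that the share that fell was near that of all probe sets. Cul1 (-0.28, adjusted p = 0.000326) and Skp1 (-0.25, adjusted p = 0.0219), the scaffold and the adaptor of the ligase that F-box proteins join, fell with Fundc1 (-0.39, adjusted p = 0.00934). Twnk, the mitochondrial DNA helicase, rose most (0.59, adjusted p = 1.25e-05), with Tfam, Sqstm1 and Gabarapl1 (0.28, 0.29 and 0.42). Bnip3 and Bnip3l, the mitophagy receptors that Fbxl4 acts on, were not called (-0.11 and 0.18 at 15 ppm, 0.24 and -0.06 after instillation). The list's median differences were 0.01 and 0.12, against 0.01 and 0.02 over all probe sets.

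For Coa4, 20 of 25 cytochrome c oxidase assembly genes were measured, and they moved both ways. At 15 ppm Lrpprc, a binder of mitochondrial messenger RNA (-0.30, adjusted p = 0.00685), and Cox15, of heme A synthesis (-0.27, adjusted p = 0.0301), fell. Cox17, a copper chaperone (0.25, adjusted p = 0.0411), and Cox18, which inserts a core subunit (0.23, adjusted p = 0.0325), rose. After instillation 3 fell, led by Lrpprc (-0.43, adjusted p = 2.32e-05), and 5 rose, led by Surf1 and Sco1 (0.37 each). Set against 12.4% of all probe sets lower and 9.83% higher, 3 of 20 falling is near the share of all probe sets. The list's medians were 0.01 and 0.12. Between 2 and 0.7 ppm, where Coa4 itself was called, 0 of the 20 were called in limma and 8 had an unadjusted p under 0.05, with a median of -0.07 against 0 over all probe sets. Among all 31042 probe sets, 2634 had an unadjusted p under 0.05 there.

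At 6 ppm few of these partners were called, as were few of all probe sets (0.132% lower and 0.113% higher at 6 h, 0.322% lower at 19 days). At 6 h Stx6 fell (-0.32, adjusted p = 0.0308) and Sqstm1 rose (0.39, adjusted p = 0.0265), and at 8 days Sqstm1 rose (0.41, adjusted p = 0.014). At 19 days 0 partners in the 4 lists were called in limma, with 1, 2, 3 and 6 at an unadjusted p under 0.05 in the lists of Ooep, Stx8, Fbxl4 and Coa4. The medians of these lists at 19 days were -0.13, -0.09, -0.07 and -0.11, against 0 over all probe sets.

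**Figure D5:**
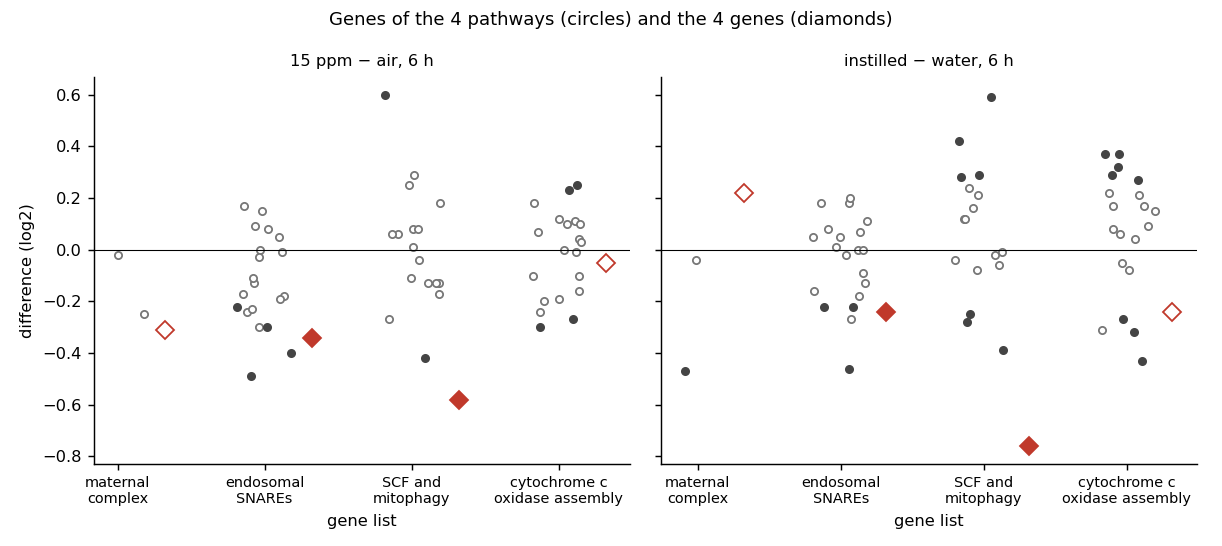
Difference at 15 ppm against air and after instillation against water (log2) for the measured genes of the 4 pathway lists (circles) and for the gene each list was built on (diamonds), filled where the adjusted p was under 0.05. Points are spread sideways for visibility, and Fbxl4 lies below all measured genes of its list in both panels.

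The genes whose lead probe sets followed each of the 4 most closely over the 98 arrays, by Pearson's r, are given as a description. Ooep was followed by Ascl3, a transcription factor of ionocytes and duct progenitors (r = 0.71, and 0.47 for deviations from group means), Stap1 (0.71), Ap3s2 (0.65), Tmem126b (0.64) and Hint3 (0.64). Stx8 was followed by Commd7 (0.75), Cpped1 (0.71), Mrps28 (0.69), Fars2 (0.69) and Ascc1 (0.68). Fbxl4 was followed by Gphn, the scaffold protein gephyrin (0.84, and 0.64 for deviations, the highest of all genes), Srbd1 (0.81), Ldlrad3 (0.77), Atf7ip (0.77) and Hibch (0.76). Coa4 was followed by Tnfaip8 (0.71), Heatr4 (0.70), Hspbap1 (0.68), Slc16a13 (0.68) and Nif3l1 (0.68). For deviations from group means, r was lower for every gene named. Apart from Ascl3 and Gphn, it ran from 0.27 (Nif3l1) to 0.57 (Heatr4). The r over the 98 arrays also takes in differences between groups and between array sets.

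Ascl3 differed from air at 6 ppm by -0.58, -0.49, -0.39, -0.15 and -0.96 from 6 h to 19 days. It was also lower in the air animals of array set 2 (9.76 ± 0.11) than in those of array set 1 at 6 h (10.45 ± 0.23, SD, n = 4), as Ooep was. Ascl3 was picked by its correlation with Ooep over the 98 arrays, which include these groups. Differences shared with Ooep therefore follow from that choice. After instillation, where Ooep differed by 0.22, Ascl3 differed by -0.94. A list of ionocyte markers, drawn up after the values of Ascl3 were seen and including it, had 7 of 9 genes measured. At 6 ppm the medians of the list were -0.19, -0.19, -0.12, 0.03 and -0.44 from 6 h to 19 days. At 19 days 2 of the 7 were called lower (0.322% of all probe sets were), Ascl3 and Foxi1 (-0.72), and at the other times limma called 0, with 1 at an unadjusted p under 0.05 each time. The level of the list per animal at 6 ppm overlapped air at 6 h (8.17 to 8.57, air 8.19 to 8.71) and 5 days (8.00 to 8.23, air 8.12 to 8.39), where Ooep did not, and lay below air at 19 days (7.96 to 8.39, air 8.47 to 8.84). After instillation 3 were called lower (12.4% of all probe sets were), Ascl3, Pparg (-0.63) and Atp6v1c2 (-0.62), with a list median of -0.30, and at 15 ppm 0 were in limma, with 3 at an unadjusted p under 0.05 and a median of 0.03. No marker was at 0. The part of these cells in the level of Ooep was not tested.

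Macrophage and dendritic cell markers had lower medians at 6 ppm than in air at 6 h and 19 days, but few were called. Their mean level per animal, over 10 measured markers, was 9.01 to 9.34 in air and 8.44 to 9.01 at 6 ppm at 6 h, and 9.33 to 9.73 in air and 8.75 to 9.34 at 6 ppm at 19 days. The ranges met at 6 h and overlapped at 19 days. The medians of the list were -0.44 and -0.38, with 1 and 0 of the 10 called lower in limma (0.132% and 0.322% of all probe sets were) and 5 and 4 at an unadjusted p under 0.05. At 5 days, where Ooep and Stx8 were also lower, the ranges overlapped as well (9.09 to 9.44 in air, 8.84 to 9.53 at 6 ppm). The 10 general epithelial markers had medians of -0.26 at 6 h, -0.04 at 5 days and 0.06 at 19 days. The 5 germ cell markers had medians of 0.12, 0 and 0.03 at these times. Of 9 basal cell markers 2 were called higher at 6 ppm and 6 h, where 0.113% of all probe sets were, and 0 at 15 ppm and after instillation (1 and 0 at an unadjusted p under 0.05 in limma). After instillation 1 of 9 secretory and 2 of 8 lymphocyte markers were called higher and 1 of 7 stromal markers lower, where 9.83% of all probe sets were higher and 12.4% lower. At 15 ppm 1 of 4 erythroid markers was called higher, where 4.32% of all probe sets were. None of these markers was at 0, and their part in the differences was not tested.

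The nearest genes with a probe set on both sides of each of the 4, 16 genes in all, were mostly not called. At 6 ppm limma called 0 of the 16 at any time (at most 2 at an unadjusted p under 0.05), where 0% to 0.322% of all probe sets were called lower. In the tested comparisons Ntn1, the guidance cue netrin that lies near Stx8 with 1 gene between, fell at 15 ppm (-0.90 ± 0.14, adjusted p = 1.68e-06) and after instillation (-1.09 ± 0.14, adjusted p = 2.21e-09). Eef1a1, a translation elongation factor near Ooep, rose after instillation by 0.11 (adjusted p = 0.045). Of all probe sets, 4.17% were called lower at 15 ppm, and 12.4% lower and 9.83% higher after instillation. In limma 3 and 5 of the 16 had an unadjusted p under 0.05 there, as did 6274 and 10239 of all 31042 probe sets. These counts are thus not particular to the neighbours. Dnajb13, Ucp2, Mrpl48 and Rab6a around Coa4 and Coq3, Pnisr, Pou3f2 and LOC102553820 around Fbxl4 were not called, nor were Gsta4, Cilk1 and Mto1 near Ooep or LOC100911946, Usp43 and Pik3r6 near Stx8.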

How the data were processed

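The deposited log2 values of the authors cover 31099 probe sets on each array, with the summarisation and the normalization not given in the sources used here. After 57 control probe sets were left out, 31042 were tested. Symbols came from the platform annotation, updated by gene identifier to RefSeq (GRCr8): 20826 probe sets had 1 symbol, 436 several and 9780 none.

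R 4.3.3 with limma 3.58.1 fitted 1 coefficient per group to the 98 arrays (74 residual degrees of freedom), with moderated two-sided tests and Benjamini-Hochberg adjustment across all probe sets. Calls were made at an adjusted p under 0.05. The lowest correlation between 2 arrays of a group was 0.9621, and 0 pairs were identical. The procedure was tested on simulated data. Correlations of deviations used 100000 permutations within groups, over the 57 animals that the choice of genes did not use, a limit added after the values were seen. A gene is given by its brightest probe set. Genes named are those chosen, up to 3 called list genes per comparison or all of 5 or fewer, 5 most similar genes each and flanking genes. Stx7, Vti1b, Vamp8, Bnip3 and Bnip3l, as direct partners, were added after their values were seen. Cyclic loess, array weights, RNA integrity (over the 85 arrays that have the number), other priors and filters, 1 array set alone and leaving out each animal were the alternatives. The genes and lists were chosen with earlier results of these data known.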

Additional observations from a re-analysis of the deposited data

Results flagged for a closer look

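Of 120 combinations of a probe set and a group of 4 or 5 animals, 4 held an animal whose gap to the others, relative to the range of its group, passed Dixon's critical value at the 95% level. Chance passes about 1 in 20 groups. Fbxl4 was 7.20 in animal 284 at 6 ppm and 6 h, where the other 3 had 7.57 to 7.62. That animal was also lowest in its group for Ooep, Stx8 and Coa4. The second probe set of Fbxl4 was 4.39 in instilled animal 374, where the others had 4.88 to 4.95, and 5.27 in animal 308 at 6 ppm and 19 days, where the others had 5.07 to 5.09. Coa4 was 7.56 in air animal 61 at 5 days, where the others had 7.33 to 7.36.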

How the results depend on the processing

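No paired analysis was possible because every rat was measured on 1 array and animal numbers are not shared between groups. The falls of Fbxl4 (lead probe set) and Stx8 at 15 ppm and of Fbxl4 after instillation kept their call under every alternative run. Calls that changed, beside those for time given above, included Coa4 between 2 and 0.7 ppm with RNA integrity as a covariate (-0.22), Stx8 in the same comparison with array weights (-0.14, called), Stx8 after instillation with cyclic loess (-0.13), and Ooep at 15 ppm against the air animals of array set 1 (-1.47, called); the cause was not tested. Uncalled values near 0 changed sign. Coa4 at 15 ppm became 0.02 with cyclic loess. Between 2 and 0.7 ppm, Coa4 at 24 h became 0.05 with RNA integrity and 0.02 with array weights, and at 8 days 0.09 with array weights. Fbxl4 there became -0.03 at 24 h (array weights), -0.01 at 8 days (RNA integrity, cyclic loess) and 0.03 at 19 days (second probe set), and Ooep -0.02 at 24 h (array weights) and -0.01 and 0.00 at 8 days (cyclic loess, RNA integrity). The second probe set of Fbxl4 gave 0.22 for water against air.

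Leaving out 1 animal gave -0.56 to -0.10 for Ooep at 15 ppm and 0.09 to 0.33 after instillation, -0.23 to -0.19 for Coa4 between 2 and 0.7 ppm, -0.30 to -0.19 for Coa4 and -0.27 to -0.21 for Stx8 after instillation, and -0.03 to 0.00 for the second probe set of Fbxl4 between 2 and 0.7 ppm. At single times between 2 and 0.7 ppm it gave for Coa4 -0.07 to 0.04 (24 h) and -0.06 to 0.08 (8 days), for Fbxl4 -0.06 to 0.05 (24 h), -0.03 to 0.05 (8 days) and -0.05 to 0.00 (19 days), for Ooep -0.12 to 0.09 (24 h), -0.10 to 0.17 (8 days) and -0.14 to 0.20 (19 days), and for Stx8 -0.06 to 0.03 (24 h) and -0.08 to 0.02 (5 days).

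Counts of probe sets called moved more. At 15 ppm 4713 were called with array weights, and for the difference between routes 84 in array set 2 alone and 104 to 574 without 1 animal. For water against air the count was 352 (array weights), 10 (no moderation, or probe sets above the median only), 0 (array set 2 alone) and 1 to 15 without 1 animal. Between 2 and 0.7 ppm it was 1 (RNA integrity), 203 (array weights), 52 (probe sets above the median only) and 5 to 68 without 1 animal over the mean of 5 times. Summed over single times it was 44 (RNA integrity), 1359 (array weights), 2 (array set 1 alone), 3 (cyclic loess) and 0 to 54 without 1 animal. With 4 or 5 animals a group, the intervals printed above set what could be told apart.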
